A study of Rattus norvegicus with 4 samples.

Results

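Glycolysis and hypoxia response genes were followed in cultured neonatal rat ovaries as a list of 34 genes. Members were found as probe sets, the sets of short oligonucleotides that together measure 1 transcript, whose gene symbol in the platform annotation was exactly that of a listed gene. Of the 34 listed genes, 33 had such a probe set, out of 14217 genes named by 1 symbol on the array. Pkm, the pyruvate kinase of most tissues, shared its probe set with a pseudogene's symbol and is not analysed here. The brightest probe set of each gene was used, and 31 of the 33 passed a filter on low signal at the 40th percentile of all probe sets (a signal of about 21.4). Hk2, a hexokinase, and Adm, which encodes the vasodilator peptide adrenomedullin, lay below it.

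Ovaries came from female rat pups 4 days old and were kept for 2 days as whole organs on floating filters, in serum-free medium with albumin, ascorbic acid, transferrin and 200 ng/ml insulin. The control group received no factor, and the treated group received GDNF (glial cell line-derived neurotrophic factor, a secreted ligand of the Ret receptor) at a dose not given in the sources used here. Each group had 2 samples, numbered 1 and 2 in the labels, and each sample was RNA from a pool of 6 to 10 ovaries, hybridised to 1 Affymetrix array. Whether the pools of a group differ in litter or day of culture is not stated in the labels. The p-values therefore cover only the spread among these 4 samples, some of which may be technical. The design compares treated with untreated pools.

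Glycolysis converts glucose to pyruvate in the cytosol, and lactate dehydrogenase turns pyruvate into lactate when cells do not pass it on to mitochondria. When oxygen is low, prolyl hydroxylases stop marking the HIF alpha subunits for degradation, and HIF binds a short DNA motif near genes for glucose transport, glycolysis, mitochondrial clearance and angiogenesis. HIF activity is set mostly at the protein level, which arrays do not measure. In the ovary, granulosa cells are known for active glycolysis and supply the oocyte with pyruvate, and an explanted organ without circulation depends on diffusion for its oxygen.

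In these 4 samples the members did not separate the treatments, and by the members' median level the GDNF samples lay at opposite ends. Relative to each gene's mean over the 4 samples, the median log2 level of the 31 tested members was -0.0455 and 0.0103 in controls 1 and 2, and 0.0948 and -0.135 in GDNF 1 and 2. By this median GDNF 1 was the highest sample and GDNF 2 the lowest, with the controls between them. The 14 tested glycolytic enzymes had that order. For the 17 other members control 1 was lowest, at -0.081, against -0.0644 in GDNF 2. The members' summed signal was also lowest in control 1, at 20945.9 and 22090.9 in controls and 22848.8 and 21314.6 in GDNF samples. The log2 scale is log2(signal + 1) throughout, which understates differences of dim genes. For 13 of 31 members (41.9%) GDNF 1 was the highest of the samples and GDNF 2 the lowest, against 13.7% of the 18625 probe sets tested. GDNF 1 exceeded GDNF 2 by at least 1.5-fold in 5 members (16.1%, against 9.37% of all probe sets), and GDNF 2 exceeded GDNF 1 by that much in 0 (against 2.99%). The 5 were Ankrd37, Aldoc, Ero1a, Ndrg1 and Eno2. Dimmer tested probe sets of Ero1a and Ndrg1 had gaps of 1.08-fold and 1.71-fold. Between the controls 0 members differed by 1.5-fold in either direction, against 2.05% of probe sets higher in control 2 and 3.73% higher in control 1.

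**Figure D1:**
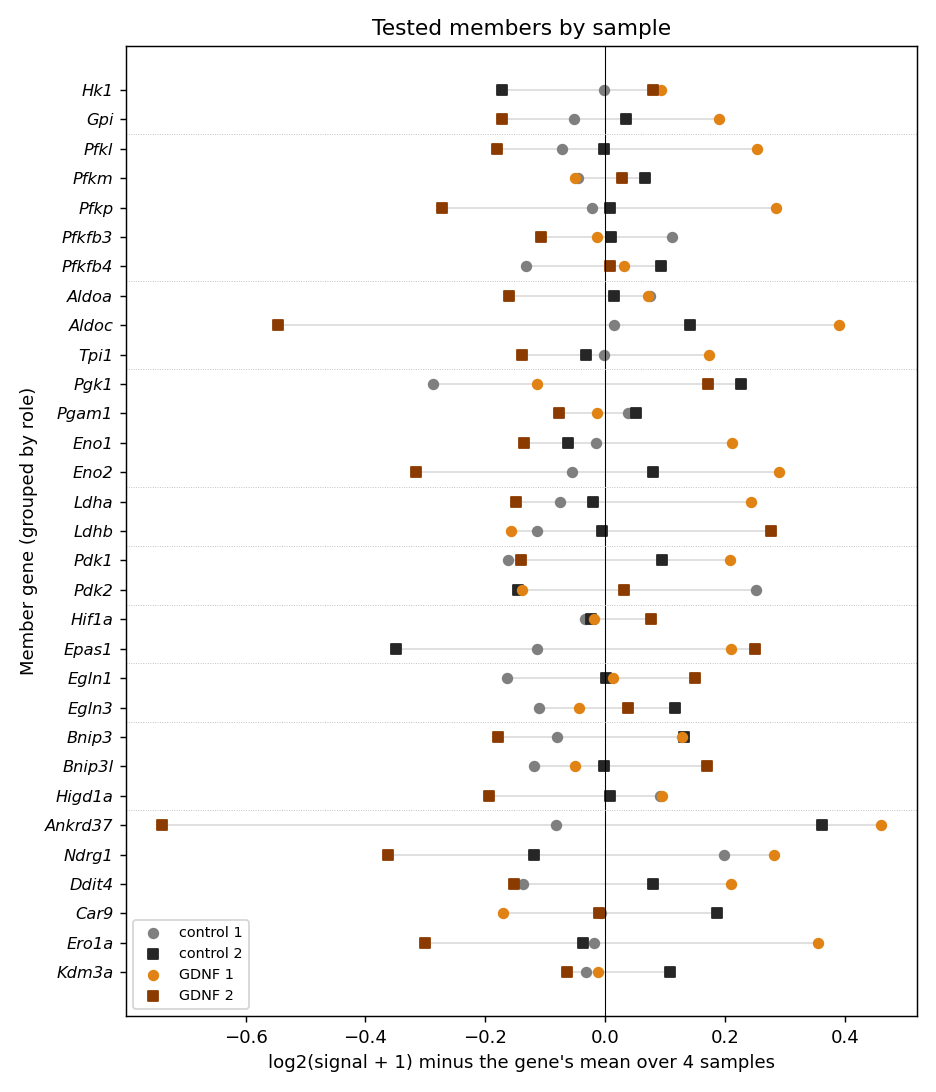
Level of each of the 31 tested members in each sample, as log2(signal + 1) minus that gene's mean over the 4 samples (x axis), with genes grouped by role (y axis, dotted lines between roles), circles for replicate 1 and squares for replicate 2, grey and black for control, orange and brown for GDNF. GDNF 1 is the highest and GDNF 2 the lowest symbol for 13 members, with the widest gaps in Ankrd37 and Aldoc, while Ldhb and Epas1 have other orders.

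The array's own quality controls had a like order in part. For beta-actin the 3' signal over the 5' signal, a ratio that rises as RNA is degraded or incompletely copied, was 3.76 and 3.34 in controls 1 and 2, and 2.62 and 3.61 in GDNF 1 and 2. This ratio was lowest in GDNF 1 and highest in control 1. The ratio of Gapdh, itself a glycolytic enzyme, was 1.28 and 1.22 in controls and 1.11 and 1.44 in GDNF samples. For Gapdh, GDNF 1 thus had the lowest and GDNF 2 the highest ratio. The signal of the beta-actin 5' control was 523 and 557 in controls, 1015 in GDNF 1 and 397 in GDNF 2, and that of the Gapdh 5' control 2159.8, 2061, 2806 and 1758 in the same order. Both 5' controls were highest in GDNF 1 and lowest in GDNF 2, as the members' median is. The beta-actin 3' control had the same extremes, at 1968.1 and 1862.7 in controls and 2658.8 and 1436.1 in GDNF samples. The Gapdh 3' control was lowest in control 2, at 2762 and 2510.9 in controls and 3119.2 and 2533.9 in GDNF samples. The part of RNA quality in the members' levels was not tested. Each array had been scaled to the same trimmed mean, and the median signal was 40 and 38.6 in controls and 41.1 and 36.7 in GDNF samples.

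**Figure D2:**
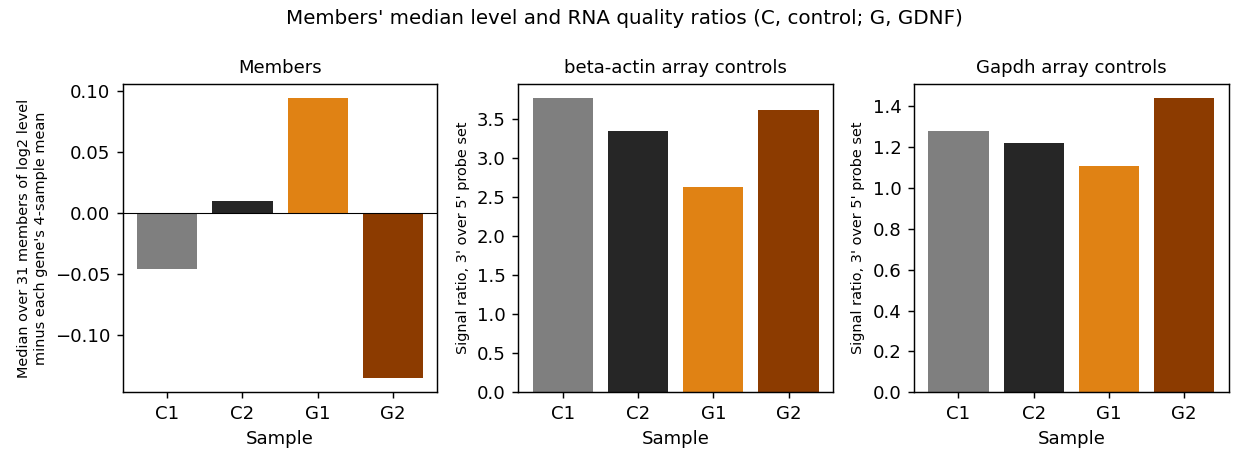
Left, the median over the 31 tested members of the log2 level minus each gene's mean over the 4 samples, middle and right, the 3' over the 5' array control signal for beta-actin and Gapdh, each bar being 1 sample. GDNF 1 has the highest members' median (0.0948) and the lowest ratios (2.62 and 1.11), and GDNF 2 the lowest median (-0.135) and the highest Gapdh ratio (1.44).

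Markers of the tissue were present, and a few markers of other cell types had the members' extremes. Gdf9 and Zp3 of the oocyte had signals of 545 to 1000.5 and 1665 to 2732. Among 10 marker lists, that of macrophages and leukocytes had its highest summed signal in GDNF 1 and its lowest in GDNF 2. The sums were 1313 and 1090.1 in controls and 1493 and 924 in GDNF samples. By the median log2 level used for the members, that list was highest in control 1 instead. Its medians were 0.223 and 0.0138 in controls and 0.00718 and -0.223 in GDNF samples. Of its 9 markers, 3 had GDNF 1 highest and GDNF 2 lowest (Cd14, Cd74 and Itgam). The share among all probe sets tested was 13.7%, which covers only those that passed the filter, and Itgam did not pass it. The lowest signals of the list were those of Itgam, at 9.7, 2.1, 18.6 and 2. For the oocyte, granulosa, theca, surface epithelium, stroma, endothelium and erythroid lists 0 markers had that order, and for the smooth muscle and adipocyte lists 1 each (Myh11 and Cd36). No marker of these lists was listed at 0 in any sample, and their part in the result was not tested. In whole ovaries, fewer cells of a type and less RNA per cell cannot be told apart.

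The promoters of a few members are shown because HIF acts through the core motif ACGTG or GCGTG, on either strand, and because these members differ in how they lay across the samples: Ankrd37, Aldoc, Ldha and Bnip3 were lower in control 1 and GDNF 2 than in the other samples, and Ldhb was highest in GDNF 2. Each line gives the 250 bases before the annotated start (RefSeq, assembly GRCr8), 5' to 3' on the strand of the gene, with motif matches in capitals.
Ankrd37 (chr16:53001257-53001506, + strand): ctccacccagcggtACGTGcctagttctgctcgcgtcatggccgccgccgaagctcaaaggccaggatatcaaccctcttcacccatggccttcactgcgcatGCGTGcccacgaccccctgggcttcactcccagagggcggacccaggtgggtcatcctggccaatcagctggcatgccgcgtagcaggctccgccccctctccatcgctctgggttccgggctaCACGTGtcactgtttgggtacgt
Aldoc (chr10:63715294-63715543, + strand): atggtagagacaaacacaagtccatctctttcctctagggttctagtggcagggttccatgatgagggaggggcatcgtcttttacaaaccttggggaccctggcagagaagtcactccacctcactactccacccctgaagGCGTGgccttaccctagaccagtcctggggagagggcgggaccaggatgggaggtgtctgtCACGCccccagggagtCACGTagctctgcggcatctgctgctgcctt
Ldha (chr1:106507842-106508091, + strand): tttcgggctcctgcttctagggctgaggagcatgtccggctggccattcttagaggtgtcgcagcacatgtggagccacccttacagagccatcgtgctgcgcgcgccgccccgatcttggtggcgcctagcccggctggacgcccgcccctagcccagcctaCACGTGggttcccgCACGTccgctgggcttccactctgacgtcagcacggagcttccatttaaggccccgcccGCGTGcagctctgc
Bnip3 (chr1:203154963-203155212, - strand): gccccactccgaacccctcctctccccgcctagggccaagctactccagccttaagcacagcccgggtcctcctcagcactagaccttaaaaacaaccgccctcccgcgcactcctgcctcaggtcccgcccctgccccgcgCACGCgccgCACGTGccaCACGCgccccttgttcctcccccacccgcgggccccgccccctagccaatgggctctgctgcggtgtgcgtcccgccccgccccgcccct
Ldhb (chr4:177177409-177177658, - strand): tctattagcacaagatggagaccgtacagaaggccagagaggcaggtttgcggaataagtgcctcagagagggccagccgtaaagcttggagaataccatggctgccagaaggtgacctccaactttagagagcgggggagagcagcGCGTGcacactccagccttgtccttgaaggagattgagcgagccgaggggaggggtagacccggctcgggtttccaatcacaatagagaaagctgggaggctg
Ankrd37 had 4 matches at 3 places, the nearest 18 bases before the start, and the palindrome CACGTG counts as a match on each strand. Ldha and Bnip3 also had 4 matches at 3 places, each with a CACGTG, which is also the E-box bound by other factors. Aldoc had 3 separate matches and Ldhb 1. Over the members, 22 of 35 promoter entries (62.9%) held a match, against 36.7% of the 33469 entries of the table. By gene, 21 of the 30 members with an entry (70.0%) held a match, against 39.6% of all genes. Among the 12 tested members that were lower without overlap in control 1 and GDNF 2, 10 held one (83.3%), against 11 of 15 (73.3%) of the other tested members with an entry. The promoters shown do not stand for all of these 12 members. Among the rest of the 12, Pfkl, Pdk1 and Ddit4 had 2 matches, Pfkp and Eno2 1, Kdm3a at most 1, and Gpi and Pfkfb4 0. Outside the 12, tested members ranged from 0 (such as Tpi1) to 3 (Hif1a and Higd1a), and Pdk2 had 2. A match is a sequence in a window and not a measured site.

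Glucose entry and the first steps of glycolysis differed little between treatments. Hk1, the hexokinase of most tissues, had a signal of 144 and 128 in controls 1 and 2, and 154 and 153 in GDNF 1 and 2. Both GDNF samples lay above both controls, by a log2 difference of 0.17 (SE 0.14). Hk2, the inducible hexokinase, was below the filter at 7.4 and 4.1 in controls and 22.2 and 5.5 in GDNF samples, so GDNF 1 stood alone above the rest. Gpi, which isomerises glucose 6-phosphate, had 1064 and 1131 in controls and 1259.5 and 979 in GDNF samples. The GDNF samples of Gpi lay on either side of the controls.

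The phosphofructokinases, which commit sugar to glycolysis, fell into different patterns. Pfkp, the platelet-type subunit, had 368 and 376 in controls and 456 and 309.5 in GDNF samples, a 1.47-fold gap between the GDNF pools. Pfkl, the liver-type subunit, had 80.1 and 84.2 in controls and 101 and 74.3 in GDNF samples. For both genes the controls were nearly equal and the GDNF samples lay above and below them. Pfkm, the muscle-type subunit, had 199 and 216 in controls and 199 and 210 in GDNF samples in its brightest probe set. A dimmer probe set of Pfkm had 81.2 and 86 in controls and 125 and 76 in GDNF samples, the order of Pfkp. The bifunctional enzymes that set fructose 2,6-bisphosphate showed less: Pfkfb3 had 70.2 and 65.4 in controls and 64.3 and 60.2 in GDNF samples, lower in both GDNF pools (log2 difference -0.12, SE 0.18). Pfkfb4 had 32.1 and 37.7 in controls and 36.1 and 35.5 in GDNF samples, with the GDNF samples inside the controls.

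Aldolases cleave fructose 1,6-bisphosphate, and their members differed in spread. Aldoc, the isoform best known from brain, had 64.2 and 70.2 in controls and 83.6 and 43.2 in GDNF samples. The gap between the GDNF pools was 1.94-fold and that between the controls 1.09-fold. Aldoa had 2138.5 and 2051 in controls and 2132 and 1816 in GDNF samples, so only GDNF 2 stood apart. Tpi1, triose phosphate isomerase, had 1371 and 1341 in controls and 1547 and 1246 in GDNF samples, again on either side of the controls.

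In lower glycolysis, the probe sets of Pgk1 disagreed. Pgk1, phosphoglycerate kinase, had 1786 and 2551 in controls and 2015 and 2455 in GDNF samples in its brightest probe set, higher in both samples numbered 2. Its next probe set had 1317 and 1387.5 in controls and 1710.5 and 1255 in GDNF samples, with GDNF 1 highest and GDNF 2 lowest. The 2 tested probe sets of Pgk1 thus ordered the samples differently, and the brightest decides how Pgk1 is counted here. Pgam1, phosphoglycerate mutase, had 1909.6 and 1928 in controls and 1843 and 1763.5 in GDNF samples, lower in both GDNF pools by a log2 difference of -0.09 (SE 0.09). The enolases shared an order at their extremes. Eno1 had 1869 and 1811 in controls and 2187 and 1721 in GDNF samples, and Eno2, the isoform known from neurons, had 129 and 141.5 in controls and 164 and 107 in GDNF samples (a 1.53-fold gap between GDNF pools).

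The lactate dehydrogenase subunits had opposite orders of the GDNF samples. Ldha, the subunit favoured in lactate production and a known HIF target, had 1573 and 1635.5 in controls and 1963 and 1496 in GDNF samples. Ldhb, the subunit favoured in lactate use, had 1729 and 1863 in controls and 1677 and 2268 in GDNF samples. GDNF 1 was the highest sample for Ldha and the lowest for Ldhb, and GDNF 2 the reverse. The pyruvate dehydrogenase kinases, which keep pyruvate out of mitochondria, also differed. Pdk1, a HIF target, had 152 and 182 in controls and 197 and 154 in GDNF samples in its brightest probe set, low in control 1 and GDNF 2. A dimmer probe set of Pdk1 had 125 and 130.7 in controls and 134.6 and 132.8 in GDNF samples. There both GDNF samples lay above both controls. Pdk2 had 82.5 and 62.4 in controls and 62.7 and 70.7 in GDNF samples, high in the samples in which the brightest Pdk1 probe set was low.

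**Figure D3:**
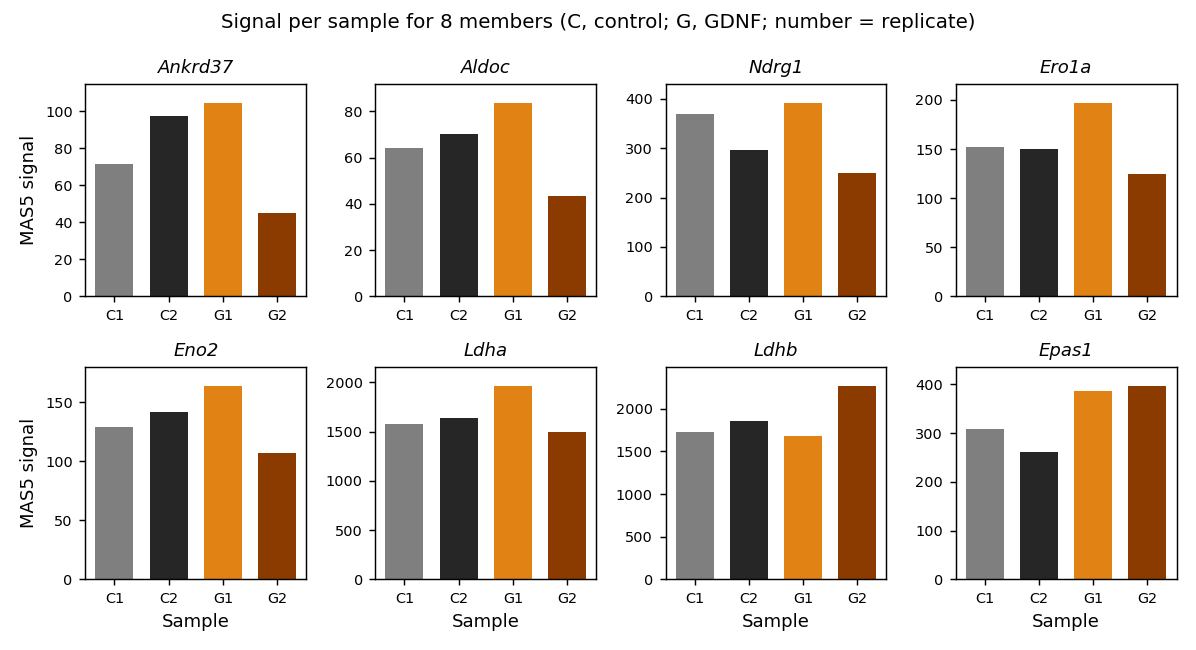
MAS5 signal (y axis, from 0, a scale of its own in each panel) of 8 members in each sample (x axis), grey and black for control and orange and brown for GDNF. Ankrd37, Aldoc, Ndrg1, Ero1a, Eno2 and Ldha are highest in GDNF 1 and lowest in GDNF 2, Ldhb is the reverse, and Epas1 is higher in both GDNF samples (385.5 and 396) than in both controls (308 and 261).

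The HIF subunits and their hydroxylases did not have the sample order of Ankrd37 or Ldha. Hif1a, the HIF subunit of most cells, had 1437 and 1446 in controls and 1451 and 1549.7 in GDNF samples (log2 difference 0.06, SE 0.09). Epas1, which encodes the HIF-2 alpha subunit and is best known from endothelium, had 308 and 261 in controls and 385.5 and 396 in GDNF samples. Both GDNF samples lay above both controls, and the log2 difference of 0.46 (SE 0.13) was the largest of the 31 members in either direction. Its limma p was 0.0082 before adjustment and its adjusted p was 0.999. Without each sample in turn the difference of Epas1 ran from 0.34 to 0.58. A dimmer probe set of Epas1, below the filter, had 13.4 and 11.3 in controls and 24.3 and 10.7 in GDNF samples. The 7 endothelial markers with a probe set had a summed signal of 1325 and 1333 in controls and 1234 and 1170.1 in GDNF samples.

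Egln1, the main HIF prolyl hydroxylase, had 216.5 and 243 in controls and 245 and 269 in GDNF samples, higher in both GDNF pools though control 2 and GDNF 1 were close (log2 difference 0.16, SE 0.13). Egln3, a hydroxylase that HIF itself induces, had 70.4 and 82.6 in controls and 73.8 and 78.2 in GDNF samples. The GDNF samples of Egln3 lay inside the controls.

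Among the mitochondrial proteins, Bnip3, a HIF-induced receptor for mitophagy, had 679.9 and 788 in controls and 786 and 635 in GDNF samples. It was low in control 1 and GDNF 2. Its relative Bnip3l had 1259 and 1365 in controls and 1320.1 and 1539 in GDNF samples, highest in GDNF 2. Higd1a, a small hypoxia-inducible inner membrane protein, had 777 and 733 in controls and 778 and 637 in GDNF samples, so GDNF 2 alone was low.

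The other hypoxia response genes ranged from the widest gap between the GDNF pools, that of Ankrd37, to a nearly level Kdm3a. Ankrd37, a HIF target of the ankyrin repeat family, had 71.4 and 97.5 in controls and 104 and 44.9 in GDNF samples, a 2.33-fold gap between the GDNF pools and a 1.37-fold gap between the controls. Ero1a, an oxidase of disulfide formation in the endoplasmic reticulum, had 152 and 149.7 in controls and 197 and 124.5 in GDNF samples. In this brightest probe set the GDNF pools differed by 1.58-fold and the controls were nearly equal. A dimmer probe set of Ero1a had 56 and 64.3 in controls and 68.4 and 63.3 in GDNF samples. There the GDNF pools differed by 1.08-fold and control 1 was the lowest sample. Ndrg1, a stress-responsive gene, had 369 and 296 in controls and 391 and 249.8 in GDNF samples. It was lower in both samples numbered 2, and a dimmer probe set of Ndrg1 had the same order of numbers (53.5 and 43 in controls, 67.2 and 39.2 in GDNF samples).

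Ddit4, an inhibitor of mTORC1 induced by stress and hypoxia, had 401 and 466 in controls and 510.2 and 397 in GDNF samples, low in control 1 and GDNF 2. Adm, below the filter, had 19.4 and 21.3 in controls and 27.5 and 18.3 in GDNF samples, in the same order. Car9, a carbonic anhydrase strongly induced by HIF in many tissues, had 54.1 and 62 in controls and 48.2 and 54 in GDNF samples, and did not follow Ankrd37. Kdm3a, a HIF-induced histone demethylase, had 363 and 400.2 in controls and 368 and 355 in GDNF samples, a range of 1.13-fold from lowest to highest.

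For the comparison of GDNF with control, 17 of the 31 tested members had a higher mean in GDNF and 14 a lower one, with a median log2 difference of 0.018, against -0.0067 over all probe sets tested. In limma, fitted on all 18625 probe sets with Benjamini-Hochberg adjustment, 0 members passed an adjusted p of 0.05 (0.00% of all probe sets did). At an unadjusted p under 0.05 there was 1 member, Epas1 (3.23%, against 2.73% of all probe sets). The treatments did not overlap for 7 members. Higher in GDNF were 4 (Hk1, Hif1a, Epas1 and Egln1; 12.9%, against 13.4% of probe sets), and lower in GDNF were 3 (Pfkfb3, Pgam1 and Car9; 9.68%, against 16.6%). These shares are at or below the background. An exact two-sided permutation test cannot go below p = 0.333 with 2 samples in each group.

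**Figure D4:**
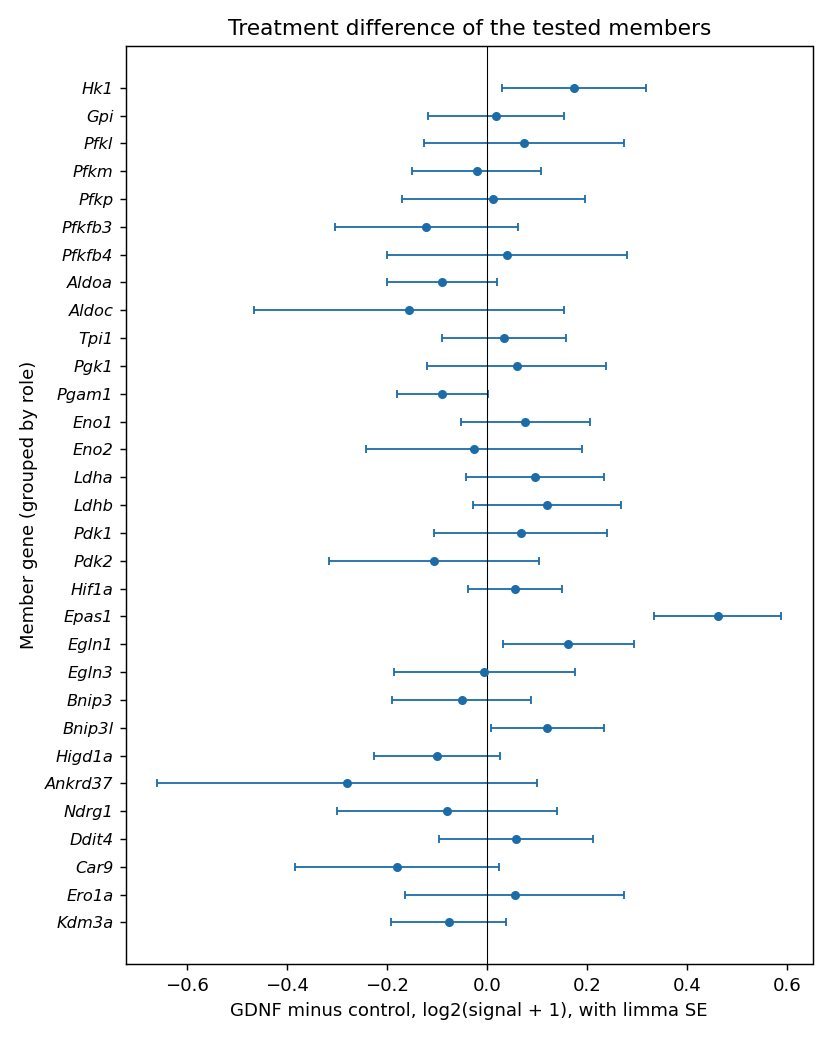
Difference between GDNF and control means on the log2(signal + 1) scale (x axis) for each tested member (y axis), with limma's standard error as bars, n = 2 samples per group. Most bars cross 0, and Epas1 (0.46, SE 0.13) lies farthest from it on the higher side.

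The sign of the difference turned with the replicate number. Between the samples numbered 1, 24 of 31 members were higher in GDNF (77.4%, against 49.9% of probe sets), with a median log2 difference of 0.17. Between the samples numbered 2, 24 of 31 were lower in GDNF (77.4%, against 52.4%), with a median of -0.13. The labels do not tie a control to the GDNF sample of its number, and each of these comparisons has 1 sample a group and no test. Leaving out GDNF 1 gave a median treatment difference of -0.11, with 10 members higher and 21 lower. Leaving out GDNF 2 gave 0.10, with 22 higher and 9 lower. Leaving out control 1 gave 13 higher and 18 lower, and leaving out control 2 gave 21 higher and 10 lower. The direction of the list against control thus turned with the sample left out, in either group.

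By replicate number, the members had a median log2 difference of -0.097 (number 2 minus number 1, 10 higher and 21 lower), against -0.013 over all probe sets tested. Leaving out 1 sample at a time gave medians from -0.164 (without control 2) to -0.016 (without GDNF 1), with 14 higher and 17 lower without GDNF 1 and 15 and 16 without GDNF 2. In a limma fit with treatment and number as terms, which leaves 1 residual degree of freedom, Ndrg1 was lower in number 2 by a log2 difference of -0.48 (SE 0.11, adjusted p = 0.0308). It was the 1 member called of 31 (3.23%, against 2.30% of all probe sets). Ndrg1 did not pass without a filter (adjusted p = 0.0958), with median centring (0.113) or in limma's eBayes without a mean-variance trend (0.402). Pgk1 had 0.40 (SE 0.11) at an adjusted p of 0.0705, and passed with the filter at the 60th percentile (0.0411) and with quantile normalization (0.003). Some markers of other cell types also had lower values in the samples numbered 2. The 3 tested adipocyte markers of 7 were all lower, with a median log2 difference of -0.75, and the summed signal of the 7 was 357 and 217 in controls and 309 and 189 in GDNF samples. Of the tested macrophage and leukocyte markers 7 of 8 were lower (median -0.25), and of those of the surface epithelium 7 of 9 (median -0.135). Over all 18625 probe sets tested, 9779 were lower. The oocyte markers went the other way, with 7 of 8 tested higher in number 2 (median 0.32). None of the markers was listed at 0, and their part in the difference of Ndrg1 was not tested. Number 2 lay above number 1 without overlap for 5 members (Pfkm, Pgk1, Ldhb, Egln3 and Bnip3l; 16.1%, against 20.9%) and below it for 6 (Aldoa, Tpi1, Eno1, Higd1a, Ndrg1 and Ero1a; 19.4%, against 22.6%). With median centring, which shifts all probe sets upward in this comparison to a median of 0.092, these counts were 11 and 1, and the members split into 17 higher and 14 lower. The shares of all probe sets without overlap after median centring are not given here, so the 11 and 1 have no background beside them.

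The remaining way to set 2 samples against 2 puts control 1 and GDNF 2 against control 2 and GDNF 1. It follows no label, so it has no test. Any 4 distinct values form a higher and a lower pair, so each gene is without overlap in 1 of the 3 comparisons. In this one, 12 of 31 members were lower without overlap in control 1 and GDNF 2 (38.7%, against 13.9% of all probe sets), and 1 was higher (Pdk2; 3.23%, against 12.1%). Over the brightest probe set of each named gene the shares were 10.4% lower and 13.4% higher. The lower 12 were the glycolytic Gpi, Pfkl, Pfkp, Aldoc, Eno2 and Ldha, the regulators Pfkfb4 and Pdk1, and the hypoxia genes Bnip3, Ankrd37, Ddit4 and Kdm3a. The median log2 difference over the 31 was -0.115, against 0.00034 over all probe sets, with 24 members lower and 7 higher. With median centring, which moves the median of all probe sets to 0.055 in this comparison, 20 were lower and 11 higher. Ankrd37 had -0.82, Aldoc -0.53, Eno2 -0.37, Ero1a -0.32, Pdk1 -0.30, Pfkp -0.29 and Ddit4 -0.29, and Ldha had -0.22. In their dimmer tested probe sets, Ero1a had -0.15 and Pdk1 -0.04.

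The gaps within each group make up that difference. GDNF 2 was below GDNF 1 by a median log2 difference of -0.23 over the members, with 21 of 31 lower (67.7%, against 51.5% of probe sets). Control 2 was above control 1 by a median of 0.09, with 21 of 31 higher (67.7%, against 49.1%). Both held together for 13 members (41.9%), and the share of all probe sets for which both held is not given here. The gap between the GDNF pools was the larger of the 2 gaps for 20 members (64.5%), close to the 59.9% of all probe sets. Leaving out 1 sample at a time gave medians from -0.204 (without control 1) to -0.092.

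**Figure D5:**
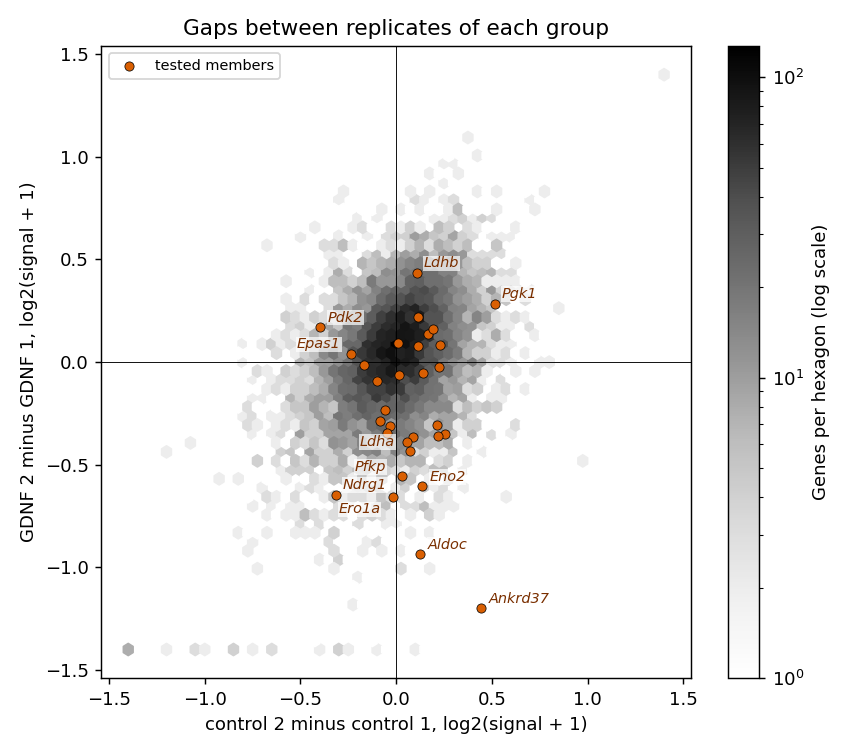
Difference between the 2 control samples (x axis) and between the 2 GDNF samples (y axis) on the log2(signal + 1) scale, for the brightest probe set of each tested named gene (grey hexagons, darker for more genes, values beyond the range drawn at its edge) and for the 31 members (orange). Of the members, 21 lie below 0 on the y axis, Ankrd37 and Aldoc farthest, and 21 lie above 0 on the x axis.

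The glycolytic enzymes and the hypoxia genes shared this shape to different degrees. The 14 tested glycolytic enzymes had a median of -0.33 between GDNF 2 and GDNF 1, with 11 lower and 3 higher (Pfkm, Pgk1 and Ldhb). The 17 other members, the regulators and hypoxia response genes, had a median of -0.05, with 10 lower and 7 higher. Their mean of -0.18 was farther from 0 than their median, since Ankrd37, Ndrg1 and Ero1a had large gaps. The 7 higher were Bnip3l (0.22), Pdk2 (0.17), Car9 (0.16), Egln1 (0.14), Hif1a (0.09), Egln3 (0.08) and Epas1 (0.04). The difference between these groups of genes was not tested.

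Other genes of the same pathways showed the shape in part. Of 79 such genes, 66 had a probe set and 52 passed the filter. For GDNF against control, 0 of the 52 passed limma's adjusted threshold and 2 had an unadjusted p under 0.05, with 24 higher, 28 lower and a median log2 difference of -0.012. Those 2 were Ldhc, a lactate dehydrogenase of germ cells (0.69), and P4ha2, a collagen prolyl hydroxylase subunit (-0.42). The others at the ends of that comparison were Slc16a3 (0.49) and Pfkfb1 (0.36) on the higher side, and Fbp1 (-0.46) and Fbp2 (-0.34) on the lower. By number, Pfkfb1 (0.46), Pfkfb2 (0.42) and Ldhd (0.40) were the highest and Bhlhe40 (-0.68), Hmox1 (-0.42) and Slc2a3 (-0.37) the lowest.

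In control 1 and GDNF 2 against the other samples, 14 of the 52 pathway genes were lower without overlap (26.9%, against 13.9% of all probe sets) and 4 higher (7.69%, against 12.1%), with a median of -0.06 (-0.127 with the mean of all tested probe sets of a gene). The lowest were Slc16a3, the lactate exporter (-0.65), Hmox1, heme oxygenase (-0.54), and Bhlhe40, a transcription factor induced by hypoxia (-0.52). Slc16a3 had 21 and 41.2 in controls and 47.3 and 36.7 in GDNF samples, where control 1 alone was low. Vegfa, the angiogenic factor, had 213 and 224 in controls and 255 and 157 in GDNF samples, and Slc2a1, the widespread glucose transporter, had 207 and 220.1 in controls and 263 and 198 in GDNF samples. Both were highest in GDNF 1 and lowest in GDNF 2, and were among the 11 of the 52 with that order, against 13.7% of all probe sets tested. The highest were Ak4, a mitochondrial adenylate kinase known as a HIF target (0.37), Pgm2 (0.22) and Mpc1 (0.13). Ak4 had 256 and 202 in controls and 181 and 239.7 in GDNF samples, the reverse of Ankrd37.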

How the data were processed

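RNA of 4 samples, 2 control and 2 GDNF, was hybridised to 1 Affymetrix array each. The authors deposited linear intensities (signals) made with MAS5, per the submitters' processing notes, where no version is named. MAS5 subtracts an estimate from mismatch probes, which makes low signals imprecise, and scales each array to 1 trimmed mean, so a change in total RNA cannot be seen. Detection calls were not used here.

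Of 31099 probe sets, 57 Affymetrix controls were left out. On the log2(signal + 1) scale, 18625 probe sets with a mean at or above the 40th percentile were tested with limma 3.58.1 in R 4.3.3 (lmFit, eBayes with a trend), with Benjamini-Hochberg adjustment over all of them and a threshold of 0.05, two-sided. The script was tested on simulated data. The filter uses the mean over all samples. Gene names came from GEO's annotation of the platform, and those with several symbols were left unnamed. Promoters are RefSeq's of assembly GRCr8, matched by symbol for 30 of the 34 members.

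The members, the lists and the comparisons were chosen with earlier results of these data known. All members were accounted for. Of the pathway genes, up to 3 highest and 3 lowest in each comparison were named. Vegfa and Slc2a1 were named after their values were seen. The alternatives tried were leaving out each sample, the number as a block, median centring, quantile normalization, the mean over a gene's probe sets, no mean-variance trend, a pseudocount of 16, and the filter set at the 60th percentile or dropped. The number of arrays limits the precision.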

Additional observations from a re-analysis of the deposited data

How the results depend on the processing

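For GDNF against control, 0 of the members passed limma's adjusted threshold under every alternative that was run, including the replicate number as a block. With that block, 8 of the 18625 probe sets passed, none of them a member, and the lowest adjusted p of a member was 0.145 (Epas1). The labels do not say that the number pairs the samples, and the deviations of same-numbered samples from their group means correlated at 0.323 over the probe sets tested. Leaving out 1 sample at a time moved the members' median treatment difference between -0.107 and 0.103. Without overlap, 2 members were higher with median centring, and 1 was lower with the filter at the 60th percentile, which tests fewer genes. The shares of all probe sets without overlap under these settings are not given here, so these counts have no background beside them. Direction of the treatment difference turned when a sample was left out for 22 of the 31 members, with log2 differences over the left-out samples of Aldoa (-0.206 to 0.0259), Aldoc (-0.624 to 0.312), Ankrd37 (-0.88 to 0.32), Bnip3 (-0.205 to 0.103), Ddit4 (-0.123 to 0.239), Egln3 (-0.119 to 0.108), Eno1 (-0.0964 to 0.249), Eno2 (-0.328 to 0.277), Ero1a (-0.274 to 0.384), Gpi (-0.164 to 0.199), Higd1a (-0.244 to 0.0451). The rest were Ldha (-0.1 to 0.291), Ldhb (-0.0976 to 0.337), Ndrg1 (-0.403 to 0.242), Pdk1 (-0.107 to 0.242), Pdk2 (-0.305 to 0.0922), Pfkfb4 (-0.0727 to 0.153), Pfkl (-0.143 to 0.291), Pfkm (-0.0771 to 0.035), Pfkp (-0.266 to 0.291), Pgk1 (-0.198 to 0.316), Tpi1 (-0.122 to 0.19). With quantile normalization Egln3 had 0.0124 and with median centring 0.0109. With the mean of all tested probe sets, Ndrg1 had 0.00819 and Pfkm 0.1.

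By replicate number, members called were 0 without a filter, with median centring and in eBayes without the trend, and 2 (Ndrg1 and Pgk1) with the filter at the 60th percentile and with quantile normalization. With a sample left out that fit has no residual degrees of freedom and gives no test. The median was 0.00757 with median centring. Members higher without overlap were 8 with quantile normalization and 11 with median centring, and 1 was lower with median centring. For control 1 and GDNF 2 against the other samples, the median lay between -0.204 and -0.092 when 1 sample was left out, and members lower without overlap were 10 to 13 under the other alternatives. For none of these counts without overlap is the share of all probe sets under the same setting given here. The pathway genes' median was -0.127 with the mean of all tested probe sets of a gene. The causes of these changes were not tested. Dim members such as Pfkfb4, Car9 and Aldoc lie closest to the background, where MAS5 signals are least precise.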
